A study of Mus musculus with 2 samples.

Results

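The broad SAHA-high domains were the autosomal regions longer than 10 kb in a list of places where a histone H4 ChIP-seq library from SAHA-treated osteoblasts held more tags than the library from solvent-treated cells. They were selected on their length alone, a measured value of the same list. They numbered 821 of 60824 autosomal regions and of 61400 regions in all. The cells were MC3T3 sc4, an osteoblast line from mouse calvaria. Both groups were grown in osteogenic medium with ascorbic acid and beta glycerol phosphate. On day 4, SAHA cells received 20 µM suberoylanilide hydroxamic acid (vorinostat) for 2 hours and the DMSO cells its solvent, and each agent stayed on during a collagenase digest of 40 min. There was 1 library per condition from 1 line, so no difference below has a replicate check, and the spread between cultures is unknown. The list carries no marker by which the cell type could be checked.

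Histone H4 carries acetyl groups on lysines of its tail, which loosen the contact of the nucleosome with DNA and are read by bromodomain proteins. Histone deacetylases remove them, and SAHA blocks the zinc-dependent deacetylases by binding the metal in their active site. Most acetylation marks form short peaks at promoters and enhancers, while long stretches of acetylated chromatin are known from strongly transcribed genes, clusters of enhancers and clusters of related genes.

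The SAHA library held 123676661 tags after filtering and the DMSO library 76214516, so the caller weighed 1 DMSO tag as 1.62 SAHA tags. The share of redundant tags differed, with rates of 0.03 in SAHA and 0.34 in DMSO. With 1 library on each side, this and the treatment cannot be told apart. Fold, score and FDR are the values of the authors' caller throughout. The fold is the SAHA height at the summit, the highest point of a region, over the local DMSO background. The score is the caller's Poisson p-value as −log10, multiplied by 10. Length, tags, fold and score all come from the same SAHA against DMSO comparison that chose the domains, so the values are descriptions and no test was made on them. Positions are in build mm9. No gene annotation of that build was used here, so the domains are given by position, and their sequences were not analysed here.

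The broad domains held larger shares of the listed bases and tags than of the regions, which a selection by length brings with it. They made up 1.35% of the autosomal regions, 8.32% of their bases (10.6 of 127.6 Mb) and 12.4% of their SAHA tags (3386911 of 27233609). Of all tags kept in the SAHA library they held 2.74%. Their median length was 12015 bp (quartiles 10937 and 14144 bp) and the longest reached 36105 bp, against a median of 1326 bp in the other 60003 autosomal regions. A domain held a median of 3778 SAHA tags, from 1803 to 15569. The limit of 10 kb fell in a smooth decline of lengths. There were 327 regions of 9 to 10 kb, 220 of 10 to 11 kb, 189 of 11 to 12 kb and 117 of 12 to 13 kb. Beyond 15 kb 165 domains remained, and beyond 20 kb 24.

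**Figure D1:**
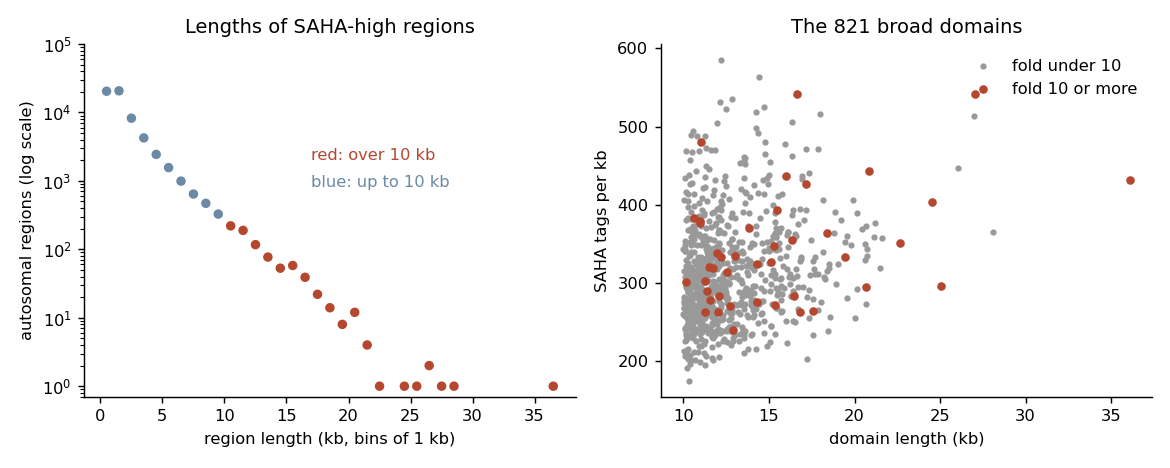
Left, number of autosomal regions in each length bin of 1 kb (log scale), with bins over 10 kb in red. Right, SAHA tags per kb against length for each of the 821 broad domains, with the 42 domains of fold 10 or more in red. The number of regions falls without a break at 10 kb. Domains of fold 10 or more occur at short and long lengths but are more frequent among the longest. They are 5 of the 10 longest domains, against 5.12% of all domains.

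Regions on the 2 sides of the limit overlapped in density and fold. The shortest domains were 2 of 10003 bp on chromosome 9. The one at 43909349 to 43919351 had 344.0 tags per kb and a fold of 3.59, and the one at 41508534 to 41518536 had 260.1 tags per kb and a fold of 4.91. The next 3 lay at chromosome 10, 6004876 to 6014892 (10017 bp, fold 3.11), chromosome 1, 73885794 to 73895816 (10023 bp, fold 2.83), and chromosome 7, 137253777 to 137263801 (10025 bp, fold 7.86). Just outside, the region of 9999 bp at chromosome 8, 94838307 to 94848305, had 257.9 tags per kb and a fold of 6.29. The 4 others next to the limit, of 9981 to 9984 bp, had folds of 4.22, 7.97, 4.26 and 6.75. Folds inside the limit thus ran from 2.83 to 7.86 and outside it from 4.22 to 7.97, and these ranges overlap.

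SAHA tags were denser in the domains than in the other regions. The median was 304.1 tags per kb (quartiles 266.6 and 352.8, 95% interval of the median from order statistics 296.9 to 310.3), against a genome average of 66.1 tags per kb at this depth. Regions of 5 to 10 kb had a median of 253.5 tags per kb and regions up to 5 kb one of 156.1. Every one of the 821 domains lay above 159.7 tags per kb, the median of the other autosomal regions. So did 99.6% of the regions of 5 to 10 kb. Density ran from 174.8 to 585.2 tags per kb among the domains, and 93 of them (11.3%) exceeded 400 tags per kb. Among regions of 5 to 10 kb 102 (2.56%) did so, and among all 60003 other regions 182 (0.303%). The interval of the median reflects the spread between domains, treated as independent, and not the spread between cultures.

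The summits were also higher over background. The median fold was 5.54 (quartiles 4.48 and 6.81) in the domains, 4.46 in regions of 5 to 10 kb and 3.88 in shorter ones. A fold of at least 5 was reached by 520 of 821 domains (63.3%), where 19.1% of all autosomal regions reached it. In regions of 5 to 10 kb the share was 36.6%. A fold of at least 10 was reached by 1.20% of regions of 5 to 10 kb and 0.243% of all autosomal regions. It was found in 42 domains (5.12%). These 42 were 28.4% of the 148 autosomal regions of that fold. By construction, a longer region offers more positions for a high summit.

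The caller's score did not follow the length in the same way. The median score was 636.64 in the domains and 716.285 in regions of 5 to 10 kb. The domains ran from 50.18, at the cutoff of 50, to 3217.5, and 68 of them scored 3000 or more. Another 68 domains scored under 100, and 753 scored at least 100 (91.7%, where 62.6% of all autosomal regions did). An FDR of 100%, at which the caller found at least as many regions with SAHA and DMSO exchanged by its known definition, was listed for 435 domains (53.0%), where 11.7% of all autosomal regions had it. The share in regions of 5 to 10 kb was 58.4%. Among the domains themselves it was 60.9% at 10 to 11 kb and 40.4% at 15 to 20 kb. The lowest FDR was 58.26% in the domains and 58.23% in the other autosomal regions, with medians of 100% and 68.05%. No listed autosomal region thus had a low FDR.

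At the same ratio of tags to their Poisson mean, a score is higher with more tags, so the score was also put on another scale. For each region with a score under 3000, the Poisson mean that gives the listed score with the listed tags was computed, and the tags were divided by it. This ratio restates the listed score and tags. In the domains it was not shown to be an excess over a background of the caller. Its median was 1.30 in the 753 domains that could be computed (quartiles 1.17 and 1.50), 1.58 in regions of 5 to 10 kb and 1.81 in shorter regions. It was under 1.2 in 249 of the 821 domains (30.3%), against 10.5% of regions of 5 to 10 kb and 1.15% of all other regions. The 68 domains with a score of at least 3000, for which the ratio was not computed, had lower bounds of 1.38 to 2.38, and with these included the median was 1.33. A region with more tags passes the cutoff at a smaller ratio, so low ratios of long regions are in part built in.

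The Poisson mean behind these ratios cannot be read as a DMSO tag count of a domain. Up to 1 kb of length, 90.0% of the means equalled a background that the caller could have formed from whole DMSO tags or the genome average, with 2.56% expected from rounding alone. From 7 to 10 kb the match was 20.4%, and in the domains it was 1.73% with 1.15% expected.

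Several of these measures differed gradually with length, also within the domains. From 10 to 11 kb up to more than 20 kb, the median density went from 292.7 to 358.1 tags per kb and the median fold from 4.99 to 7.98. The median score was 841 in the first of these bins and 389.68 in the last, with no steady course between them. The median ratio was 1.38 and 1.16. Across domains, Spearman's rho between length and fold was 0.32 (n = 821) and between length and density 0.21 (n = 821). All points share the same 2 libraries and the same caller.

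**Figure D2:**
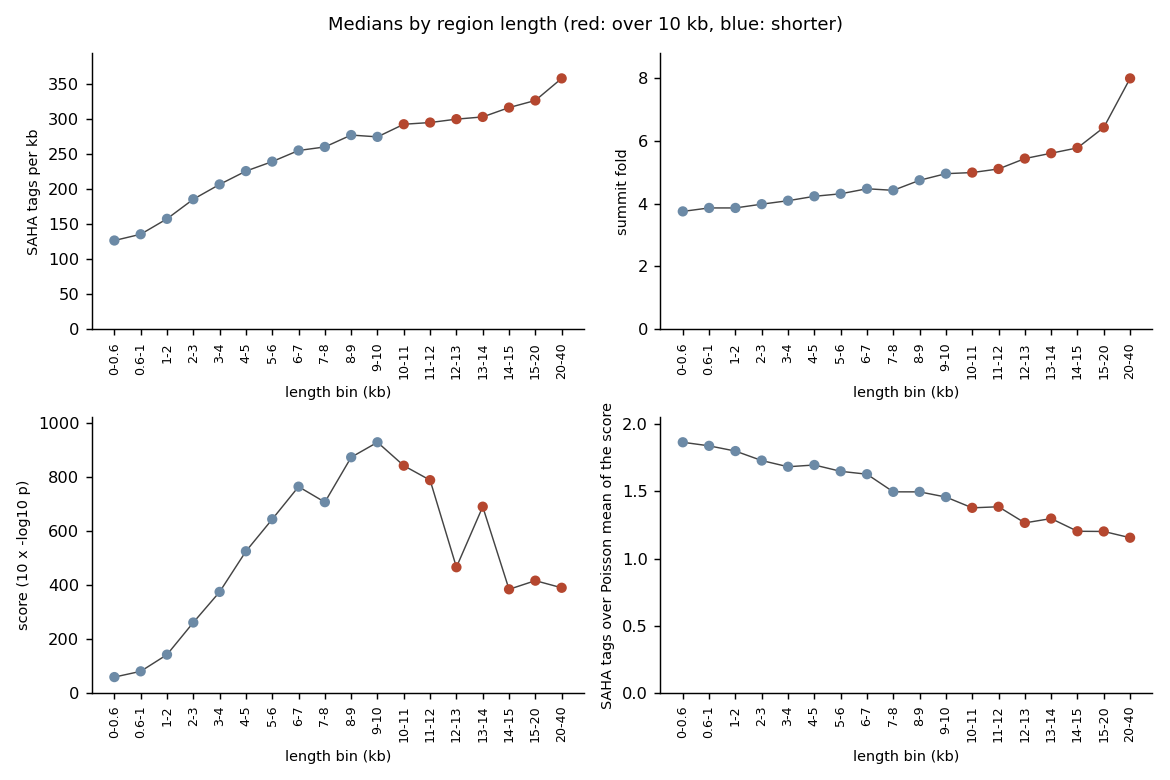
Medians in each length bin (kb) of SAHA tags per kb, summit fold, the caller's score and the ratio of SAHA tags to the Poisson mean that gives the score. Bins over 10 kb are red. Density and fold are higher in longer bins, with a fold of 7.98 beyond 20 kb. The score goes up to 927.58 at 9 to 10 kb and is 389.68 beyond 20 kb, where the ratio is 1.16.

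Summits lay mostly in the inner part of the domains and on neither side more often. The summit was in the first 50% of the length of 408 domains (49.7%, 95% Wilson interval 46.3 to 53.1%). The median distance from the nearer end was 34.7% of the length, or 4335 bp, with 35.2% in the other autosomal regions. In 283 domains (34.5%) the summit fell between 40% and 60% of the length, against 35.2% of the other regions. It came within 10% of an end in 21 domains (2.56%, interval 1.68 to 3.88%), against 6.94% of regions of 5 to 10 kb (interval 6.19 to 7.77%) and 0.991% of regions up to 5 kb. In the shortest regions a place near an end can hardly occur, since no listed summit of a region up to 5 kb lay closer than 118 bp to an end.

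Domains with a summit near an end had the higher folds. The median fold was 7.46 (quartiles 6.62 and 8.95) in the 21 domains with the summit within 10% of an end. It was 6.78 in the 94 domains at 10 to 20%, 6.05 at 20 to 30%, 5.37 at 30 to 40% and 4.89 (quartiles 3.91 and 5.82) in the 283 domains with a central summit. Spearman's rho between distance from the end and fold was −0.40 over the 821 domains, −0.09 over the 3990 regions of 5 to 10 kb and 0.06 over the 56013 shorter regions. The median density was 284.3 tags per kb near an end and 310.5 in the centre, and the median score 233.81 and 645.23.

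**Figure D3:**
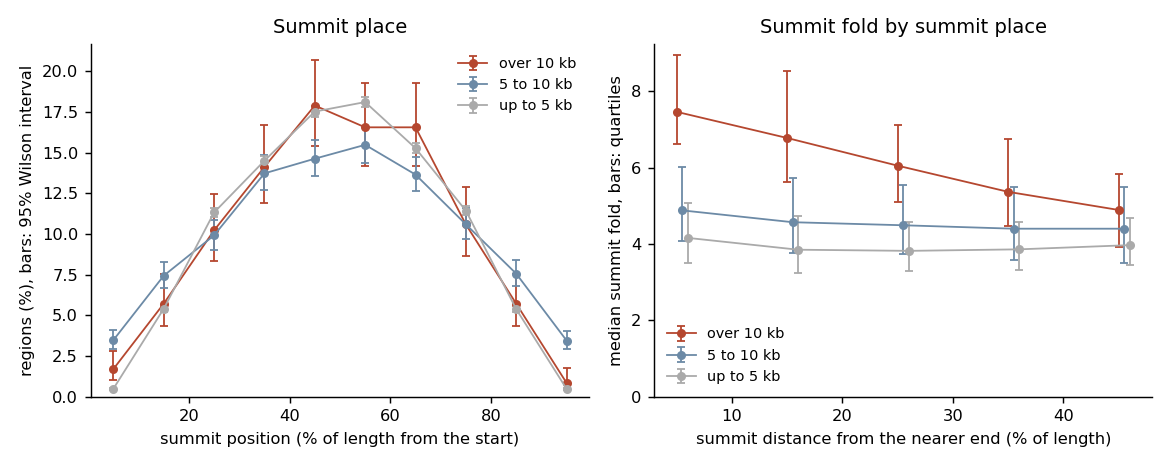
Left, share of regions (%) by the position of the summit along the region, with 95% Wilson intervals, for domains over 10 kb, regions of 5 to 10 kb and regions up to 5 kb. Right, median summit fold with quartiles against the distance of the summit from the nearer end. Summits lie centrally in all 3 classes (30.1% to 35.5% between 40% and 60% of the length), and the fold of the domains is 7.46 near an end and 4.89 in the centre.

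The 21 domains with a summit near an end often had another region close by on that side. In 16 of them a neighbour lay within 1 kb on the summit side (median gap 208 bp), and in 10 on the far side (median gap 3177 bp). Over the 283 domains with a central summit the numbers were 112 and 115. The closest summit to an end was in a domain of 17.167 kb at chromosome 6, 128051092 to 128068258, where it lay at base 204 from the start. This domain had a fold of 10.86 and stood 69 bp from the domain to its left and 21 bp from the one to its right. In the domain of 15.761 kb at chromosome 9, 61119834 to 61135594, the summit lay 288 bp before the end with a fold of 8.53, and the nearest regions lay 11982 and 12474 bp away. In the domain at chromosome 12, 81302469 to 81316935, it lay 533 bp from the start, with a fold of 8.95 and a neighbour 52 bp away.

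Most domains had another SAHA-high region close by. The median gap to the nearest region was 296 bp (quartiles 74 and 1885 bp), against 374 bp for regions of 5 to 10 kb and 671 bp for shorter ones. In 302 domains (36.8%, Wilson interval 33.6 to 40.1%) the gap was at most 141 bp, the fragment size of the caller. The share was 32.1% in regions of 5 to 10 kb and 24.2% in all other regions. A neighbour lay within 1 kb of 546 domains (66.5%), and on both sides of 180 (21.9%). These shares were 61.2% and 19.6% in regions of 5 to 10 kb, and 56.6% and 16.0% in all other regions. No neighbour lay within 10 kb of 72 domains (8.77%), against 12.3% and 14.1% in the same 2 sets. The number of other regions within 50 kb was much the same for all lengths, with medians of 10 for the domains, 10 for regions of 5 to 10 kb and 9 for shorter ones. Listed regions covered more of the sequence beside the domains, with a median of 38.7% of the 10 kb on both sides of a domain, against 29.9% and 20.9%. The region nearest to a domain was 2173 bp long and of fold 4.18 at the median. These medians were 1925 bp and 3.95 for regions of 5 to 10 kb, and 1328 bp and 3.97 for shorter ones. The nearest region was over 5 kb long in 180 domains (21.9%). The share was 15.3% in regions of 5 to 10 kb and 7.71% in all other regions.

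The listed ends of the domains depend on the gap allowed within a region. With neighbours at most 1 kb apart merged, 2464 joined regions exceeded 10 kb. Of these 771 held 1 or more of the domains, 47 held at least 2, and 1693 were made of shorter regions alone. Only 275 domains stayed as they were listed. The joined regions with a domain had a median length of 16.4 kb, and 265 of them exceeded 20 kb. The longest joined region, at chromosome 3, 97852132 to 97920932, spanned 68.8 kb and held 18 listed regions, 2 of them broad domains, with 94.5% of its bases listed. At chromosome 8, 26634509 to 26693974, 3 domains and 4 shorter regions covered 99.0% of 59.5 kb, with 285.6 tags per kb.

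Some domains lay near each other. The nearest listed region was itself over 10 kb for 59 domains (7.19%). The share was 3.13% in regions of 5 to 10 kb and 1.27% in all other regions. The distances and groups below were not set beside those of shorter regions. The median distance to the next domain was 138.7 kb (quartiles 27.4 and 713.4 kb). Another domain lay within 50 kb of 264 domains (32.2%) and within 1 kb of 51, and the smallest gap was 8 bp. At the other extreme, 162 domains had no other within 1 Mb, and the most remote stood 23.4 Mb from the next. Chained across gaps of up to 50 kb, the 821 domains formed 557 single domains, 84 pairs, 20 groups of 3, 5 groups of 4, 2 groups of 5 and 1 group of 6.

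The group of 6 lay at chromosome 6, 127948803 to 128121297, a stretch of 172.5 kb of which the domains covered 48.8% and all 17 listed regions 65.8%. Its domains were 11.3 to 17.2 kb long, with 319.8 to 472.2 tags per kb and folds of 3.91 to 10.86. Of these, 3 followed each other with gaps of 69 and 21 bp. A region of 4.109 kb in the same stretch had only 241.4 tags per kb but a fold of 7.61. The 5 domains at chromosome 19, 37848564 to 37964650, covered 56.2% of 116.1 kb, had 349.9 to 434.8 tags per kb and folds of 3.35 to 8.21. The 5 at chromosome 1, 92525245 to 92638865, began with the longest domain of the list and covered 80.9% of 113.6 kb, and with 3 shorter regions 95.6%.

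**Figure D4:**
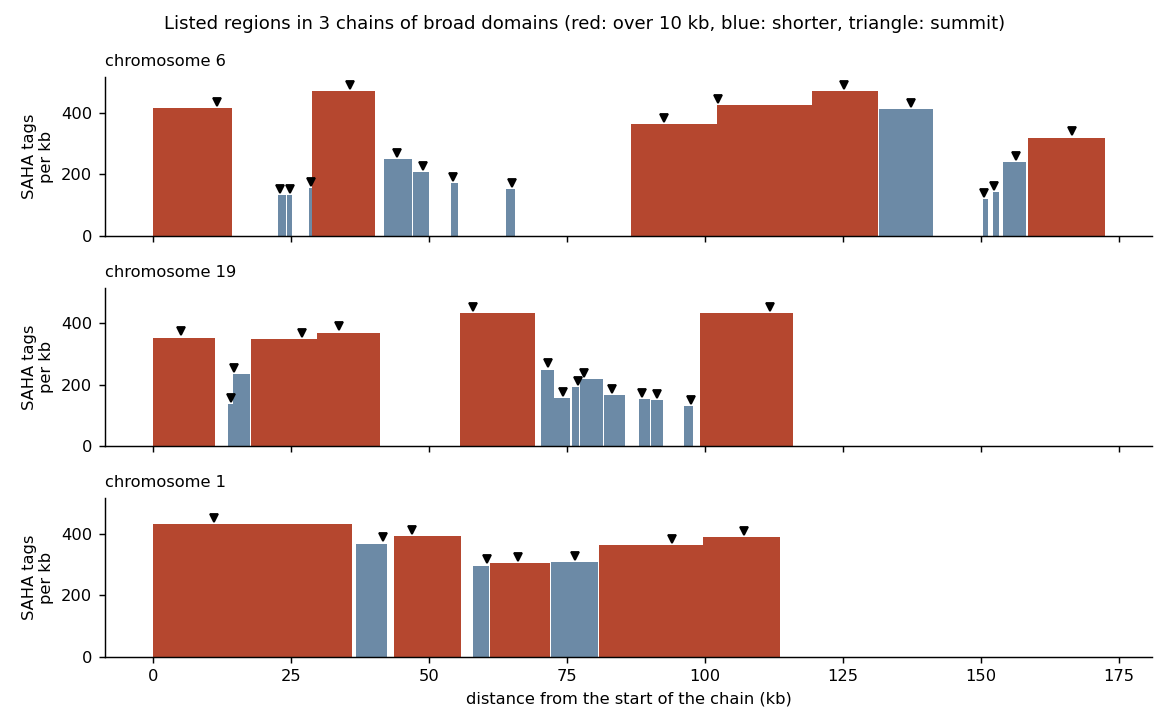
SAHA tags per kb of each listed region along the 3 chains with most domains, by distance in kb from the start of the chain; domains over 10 kb are red, shorter regions blue, and triangles mark summits. The domains stand at 304.8 to 472.2 tags per kb, and the shorter regions between them mostly lower.

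Broad domains were spread unevenly over the chromosomes. Over all autosomes there were 13.5 domains per 1000 listed regions (Wilson interval 12.6 to 14.4). Chromosome 19 had 26.0 (37 of 1421 regions, interval 18.9 to 35.7), chromosome 6 had 24.6 (71 of 2891, interval 19.5 to 30.9) and chromosome 17 had 23.7 (56 of 2367, interval 18.3 to 30.6). Their intervals overlap, so these 3 are not ordered among themselves. Chromosome 14 had the fewest with 4.19 (10 of 2388, interval 2.28 to 7.69), before chromosome 18 with 5.27 (14 of 2655) and chromosome 3 with 6.11 (23 of 3762). The highest value was 6.22 times the lowest. For regions of 5 to 10 kb the same quotient was 2.30. Of the 19 autosomes, 4 (19, 6, 17 and 2) had intervals above the value of all autosomes and 4 (13, 3, 18 and 14) below it. These intervals treat domains as independent, though many lie in groups.

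The domains per 1000 regions did not follow the regions per Mb. Chromosomes 6 and 14 carried 19.4 and 19.2 regions per Mb, the lowest values of the autosomes, yet 71 and 10 domains. Chromosome 18, with the most regions per Mb (31.2), had 0.165 domains per Mb, against 0.604 on chromosome 19, 0.629 on chromosome 17 and 0.518 on chromosome 11. Across the 19 autosomes, Spearman's rho of domains per 1000 regions with regions per Mb was 0.01, and with regions of 5 to 10 kb per 1000 regions it was 0.83. With the median density of the regions up to 10 kb it was 0.75, and with that of the domains 0.81. The domains were densest on chromosome 19 (median 356.3 tags per kb, quartiles 316.5 and 415.3), 6 (343.9) and 17 (334.1) and least dense on 14 (264.8) and 13 (265.9). Folds did not follow this order: the median was 5.69 on chromosome 19, 5.10 on 17, 4.94 on 14 and 5.90 on 13. Chromosome 8 held 10 of the 42 domains with a fold of at least 10, and chromosomes 3, 14, 16 and 17 none.

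**Figure D5:**
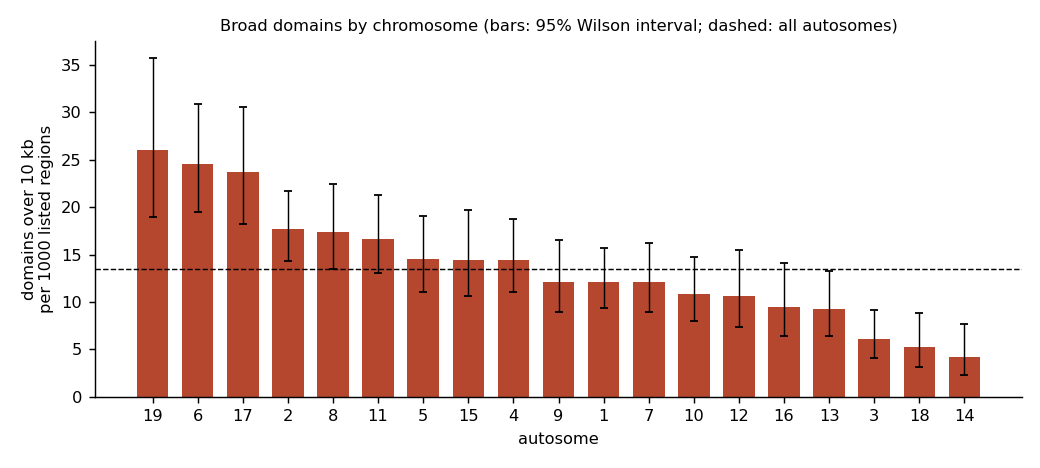
Domains over 10 kb per 1000 listed regions on each autosome, with 95% Wilson intervals and the value of all autosomes as a dashed line. Chromosomes 19, 6 and 17 stand at 23.7 to 26.0, and chromosomes 3, 18 and 14 at 4.19 to 6.11.

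No region of the X chromosome was longer than 7837 bp. With 0 of 574 regions over 10 kb, a share of up to 0.523% is allowed, against 1.35% on the autosomes. Regions of 5 to 10 kb were also scarcer on the X chromosome, with 10 of 574, against 3990 of 60824 on the autosomes. The lack of long regions there was thus not particular to the limit of 10 kb. The Y chromosome held 2 regions, which are too few to compare. Along the autosomes, 16.6% of the domains (Wilson interval 14.2 to 19.3%) started in the last 10% of the span up to the last listed region, against 13.0% of the other regions. In the first 10% the shares were 4.51% (interval 3.29 to 6.15%) and 6.14%.

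The 10 longest domains, of 21.5 to 36.1 kb, lay on 8 chromosomes, and 9 of them had a neighbour within 1 kb. Their density ran from 296.5 to 541.7 tags per kb and their fold from 6.05 to 14.84, with 5 at a fold of 10 or more. Their scores ran from 124.96 to 1450.58 in 8 of them and were at the limit, listed as 3100, in the other 2. The longest, of 36.1 kb, held 15569 SAHA tags, with a fold of 11.87 and a score of 233.54. The next, of 28.1 kb at chromosome 7, 152210154 to 152238244, held 10269 SAHA tags (95% Poisson interval 10071 to 10470). Its summit lay at 85.3% of the length, and its score was 212.65. The domain of 27.1 kb at chromosome 2, 168270294 to 168297343, combined length with density (541.7 tags per kb, 14654 tags, interval 14418 to 14893), a fold of 11.63 and a score of 3100. By contrast, the domain of 27.0 kb at chromosome 6, 84058639 to 84085602, had a similar density of 513.3 tags per kb but a fold of 7.46 and a score of 388.75. The domain of 26.1 kb at chromosome 8, 129156134 to 129182195, scored 124.96 with 11640 tags. At chromosome 12, 86950717 to 86975794, a domain of 25.1 kb had its summit at 86.4% of the length, with a fold of 10.83 and 296.5 tags per kb.

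The densest domains were not those of the highest fold. The first was at chromosome 19, 4145740 to 4157919, with 585.2 tags per kb over 12.2 kb and a fold of 4.32. It had no other listed region within 50 kb, and the next region, 51774 bp away, was the second densest domain, at 4209694 to 4224126, with 563.5 tags per kb and a fold of 4.06. Their scores were 1021.11 and 219.72. The fifth, at chromosome 17, 26662976 to 26675812, had 534.8 tags per kb and a fold of 4.57. The third and the fourth had both a high density and a high fold: the domain on chromosome 2 given above, and one at chromosome 10, 79387367 to 79404034, with 541.7 tags per kb, a fold of 11.82 and a score of 3100. Over all 821 domains, Spearman's rho between density and fold was 0.08.

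The least dense domain was at chromosome 6, 54492718 to 54503031, with 1803 tags (Poisson interval 1721 to 1888) or 174.8 per kb and a fold of 3.70. The next 4, at chromosome 13, 60437446 to 60447650, chromosome 1, 84243586 to 84254828 and 62479505 to 62489903, and chromosome 11, 50081733 to 50092709, had 191.4 to 199.2 tags per kb. The first 3 of these 4 had their summit within 9.54 to 11.3% of an end and folds of 5.58, 6.37 and 6.60, above the median of all domains. They also lay in crowded places, with 22 to 33 other regions within 50 kb. The domain on chromosome 11 had its summit at 36.8% from an end, a fold of 3.51 and a score of 61.34.

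The 5 domains of highest fold, 14.68 to 17.48, all had a score at the limit, listed as 3100. Their summits lay between 26.3% and 46.0% of the length from an end. The highest, on chromosome 13, had 275.0 tags per kb, under the median of all domains. The other 4 had 333.3 to 404.1 tags per kb. The 5 of lowest fold, 2.76 to 2.83, were all shorter than the median domain, at 10023 to 10528 bp. In 4 of them the summit lay at 46.1% to 48.7% of the length from an end. Their density ran from 237.7 to 426.9 tags per kb, which overlaps that of the 5 highest, and their scores from 53.55 to 387.04. The domain of median length, 12015 bp at chromosome 10, 95669541 to 95681555, had 284.7 tags per kb, a fold of 9.19, a score of 3049.84 and a neighbour 79 bp away.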

How the data were processed

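Histone H4 ChIP-seq libraries of 1 DMSO and 1 SAHA culture were compared by the authors. The submitters' processing notes name build mm9 and the tools BWA 0.5.9, MACS 1.4.0rc2, SAMtools and CASAVA 1.7.0. Per the file headers, MACS took SAHA as ChIP and DMSO as control, with a p cutoff of 1e-05, a fragment size of 141 bp, at most 3 duplicate tags per position, the smaller library scaled to the larger and local backgrounds over 1 and 10 kb. The deposited list gives counts of SAHA tags, a score (10 times −log10 of a p-value), a fold (a ratio at the summit) and an FDR in percent. After filtering 97.4% of SAHA and 65.6% of DMSO tags were kept, per the file headers.

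Regions were analysed with Python 3.11.15, numpy 2.4.6, scipy 1.17.1, pandas 2.3.3 and matplotlib 3.10.9. Gaps, summit places, chains (gaps up to 50 kb) and joined regions (gaps up to 1 kb) were computed from the listed positions, and the Poisson mean from tags and score. Functions were tested on simulated data. Domains and measures were chosen with earlier results of these data known. Regions named are the 10 longest domains, the 5 highest and lowest by density and by fold, the 5 on each side of the length limit, the 3 largest chains and the domain of median length. Domains with an extreme summit place, neighbours within chains and joined regions were chosen after their values were seen. With 1 library per condition no test was made. The 95% intervals of shares and tag counts cover counting error only. Those of medians come from order statistics and reflect the spread between domains, treated as independent. None covers the spread between cultures. Alternatives were other length limits, joined regions, a score limit, a fold limit and other tag numbers.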

Additional observations from a re-analysis of the deposited data

How the results depend on the processing

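No paired analysis was possible because each condition had 1 library and no test was made. Of 33 alternatives, 11 stayed within the interval of the main value, or within 1.5 times for the count. Among these was the count over all chromosomes, which could not change because no X or Y region exceeded 10 kb. The tally is thus no measure of how robust the values are. At limits of 8 kb and 15 kb the number of domains was 1618 and 165, the median density 290.1 and 331.7 tags per kb, the median fold 5.21 and 6.50, the ratio 1.37 and 1.19, and the most domains per 1000 regions 49.3 (chromosome 19) and 6.57 (chromosome 6). The median gap at 15 kb was 183 bp. Joining regions within 1 kb gave 2464 domains with 240.2 tags per kb, a fold of 5.77, a summit at 27.7% from an end, a gap of 2706 bp and 89.8 per 1000 on chromosome 17. The ratio was not computed for joined regions. At a score of at least 100 the gap was 562 bp and the ratio 1.33. With a fold of at least 5 the summit lay at 31.7% from an end. The ratio was 1.19 in the 13 of 753 domains whose Poisson mean equalled a possible background of the caller, a share of 1.73% where 1.15% is expected from rounding alone, so that value supports nothing. It was 1.33 with domains scoring 3000 or more included at their lower bound. Other limits, joining and fewer regions change these values by construction. The alternatives with other tag numbers, which test no property of the list, and with domains scoring 3000 or more were added after the data were seen.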
